A study of Mus musculus with 6 samples.

Results

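The transcription factor p53, encoded by Trp53 in the mouse, and 9 genes that it is known to activate were followed in RNA of mouse retina. The 10 genes were chosen by name: Trp53, Mdm2, Cdkn1a, Phlda3, Trp53inp1, Ccng1, Bax, Bbc3, Pmaip1 and Fas. Each name matched 1 row, so 10 of the 55450 genes in the table are described here. The libraries come from C57BL/6 mice aged 8 weeks, 3 from wild-type retinas (WT) and 3 from retinas named Myrf-kd, which the series describes as Myrf +/−. Myrf encodes a membrane-bound transcription factor. The labels give no promoter, Cre driver or altered exon for the Myrf allele, and no treatment. Whether each sample is its own animal is not stated, so p-values measure the spread between these libraries, which may be partly technical.

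In an unstressed cell p53 protein is kept low by Mdm2, a ubiquitin ligase whose own gene p53 activates, which closes a feedback loop. When DNA is damaged or the cell is stressed, p53 protein is stabilised and binds a response element made of a pair of half-sites near its target genes. The targets fall into those that stop the cell cycle, such as Cdkn1a, and those that promote cell death, such as Bax, Bbc3, Pmaip1 and Fas. In neurons of the retina, which no longer divide, p53 and Puma, the protein of Bbc3, are known from studies of photoreceptor and ganglion cell death. Since p53 is controlled largely at the protein level, its mRNA does not measure its activity.

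The response element was searched for in RefSeq promoter windows (build GRCm38.p6), to show the bases that come closest to it. Binding of p53 was not measured. Of the 10 genes, 8 had a window, and 11 windows were found for them because Bbc3 and Cdkn1a have several start sites. In the 250 bases before each start, the closest match to the consensus p53 response element was taken, 2 half-sites of 10 bases with no spacer and the C and G of each half-site core kept. The consensus reads the same on both strands. The 4 elements with at most 3 departures from the consensus are shown here, with 20 bases on either side and the element in capitals, so that targets can be set beside Trp53 itself.

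Cdkn1a, chr17:29090908-29090967, plus strand, 51 bases before the start, 1 departure: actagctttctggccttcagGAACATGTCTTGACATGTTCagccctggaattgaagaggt
Ccng1, chr11:40755442-40755501, minus strand, 195 bases before the start, 1 departure: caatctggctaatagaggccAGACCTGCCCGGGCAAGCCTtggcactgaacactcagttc
Bbc3, chr7:16309466-16309525, plus strand, 97 bases before the start, 3 departures: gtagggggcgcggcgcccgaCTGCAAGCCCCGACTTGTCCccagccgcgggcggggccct
Trp53, chr11:69580264-69580323, plus strand, 75 bases before the start, 3 departures: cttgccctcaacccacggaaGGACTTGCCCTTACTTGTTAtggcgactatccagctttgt

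Cdkn1a and Ccng1 hold 2 of the 19 windows with at most 1 departure among 32851 windows of all genes (0.0578%). At most 3 departures, the mark reached by Bbc3 and Trp53, were found in 1.14% of all windows. The closest matches had 5 departures in Phlda3, 7 in Bax and 9 in Mdm2, and Fas had no pair with intact cores. At their other start sites the closest match had 7 departures in Cdkn1a, and 7 and 8 in Bbc3. The shares count single windows, so genes with several windows had more bases in which to match. At least 1 half-site without departures was present in the windows of Bax, Mdm2, Ccng1, Trp53 and 1 window of Cdkn1a, against 7.13% of all windows. These are matches of letters. A gene without one here may carry its element elsewhere, as Mdm2 does in its first intron.

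The 6 libraries held between 50695091 and 70298511 estimated count units, about 4 of which stand for 1 fragment. Xist and Y-linked genes marked Myrf-kd 3 and WT 3 as female and the other 4 libraries as male. Myrf itself was listed at 0.279 to 0.382 FPKM in Myrf-kd and 0.359 to 0.463 FPKM in WT, so its level overlapped between the groups. Rod markers were abundant in every library, with Gnat1 at 10053 CPM or more. Microglial markers summed to 16.5 to 18.5 CPM in Myrf-kd, against 17.3 to 18.5 CPM in WT. The lymphocyte genes Cd3e and Cd3g were at 0 in all 6 libraries, and the 5 lymphocyte markers together stayed at or below 0.755 CPM. Markers of neighbouring tissues differed between libraries. The 7 markers of cornea and surface epithelium summed to 1.2 to 6.38 CPM in Myrf-kd, against 15.6 to 26.4 CPM in WT. The 8 lens markers summed to 0.586, 0.316 and 63.8 CPM in libraries Myrf-kd 1, 2 and 3, against 14.4 to 24.4 CPM in WT. The 5 markers of fibroblasts and sclera, none of them at the level needed for the fit, summed to 27.9, 21.9 and 16 CPM in Myrf-kd, against 34.8, 31.7 and 38.6 CPM in WT, without overlap. The markers of the retinal pigment epithelium summed to 112, 123 and 163 CPM in Myrf-kd, against 150, 164 and 198 CPM in WT, and 5 of 5 in the fit had lower estimates (median log2 fold change −0.42).

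Levels of different genes were compared per length, in FPKM over the 6 libraries. Ccng1, which encodes cyclin G1, stood highest at 24.5 ± 0.981 FPKM (mean ± SD, n = 6 libraries). Mdm2 followed at 12.6 ± 0.756 FPKM. Trp53inp1, whose nuclear protein assists p53 and autophagy, was at 7.24 ± 0.493 FPKM, and Bax, the pore-forming death effector, at 7.02 ± 0.977 FPKM. Cdkn1a, which encodes the cyclin-dependent kinase inhibitor p21, was at 3.85 ± 1.3 FPKM and Trp53 at 3.45 ± 0.274 FPKM. Phlda3, which encodes a pleckstrin-homology protein that restrains Akt, was at 1.95 ± 0.406 FPKM. The BH3-only death gene Pmaip1 (Noxa) was at 0.744 ± 0.170 FPKM, the death receptor gene Fas at 0.482 ± 0.107 FPKM and the BH3-only gene Bbc3 (Puma) at 0.479 ± 0.188 FPKM. Neighbours in this order whose ranges overlapped were Trp53inp1 and Bax, Cdkn1a and Trp53, Pmaip1 and Fas, and Fas and Bbc3. The other neighbours did not overlap, so the gap between the feedback and cell cycle genes at the top and the death receptor and BH3-only genes at the bottom was larger than the spread between libraries. A mean of 1 FPKM over the libraries was reached by 7 of the 10 genes. Pmaip1, Fas and Bbc3 lay below it, with 22 to 50, 13 to 24 and 10 to 28 fragments per library, and were added to the fit.

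**Figure D1:**
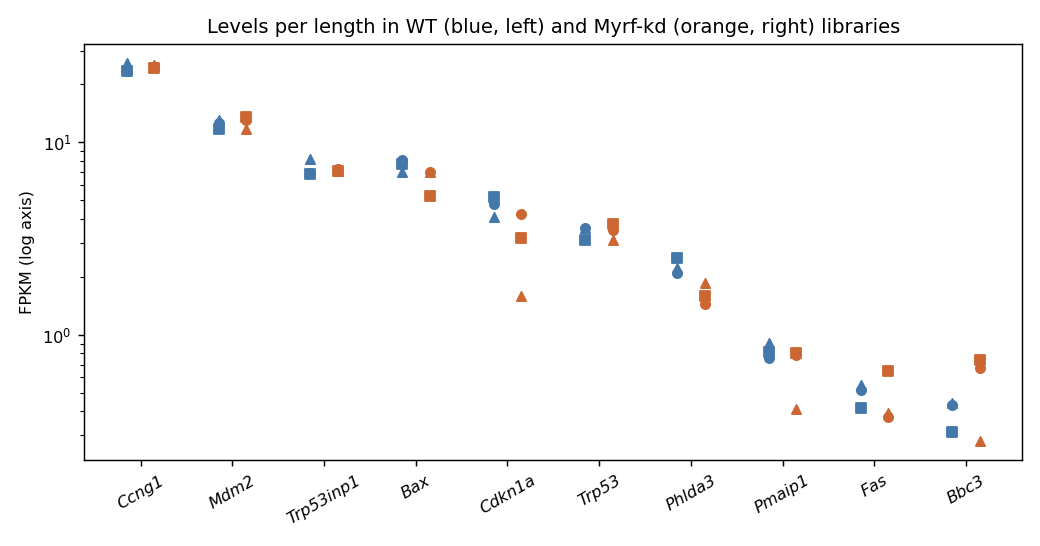
FPKM of each gene on a log axis, ordered by mean, with 1 point per library (circle 1, square 2, triangle 3; WT blue, Myrf-kd orange). Ccng1 lies highest at 24.5 FPKM, and Pmaip1, Fas and Bbc3 lie below 1 FPKM in every library.

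Whether p53 and its targets differ between Myrf +/− and wild-type retina was tested in a fit over 13676 genes. By edgeR's quasi-likelihood test, 0 of the 10 genes passed an adjusted p of 0.05, where 0.0439% of all genes did. At an unadjusted p under 0.05 there was 1 of the 10 by edgeR, against 7.47% of all genes. The same count was 1 by limma and 2 by DESeq2, against 7.44% and 7.88% of all genes, and neither called a gene of the 10. Estimates were lower in Myrf-kd for 7 of the 10, against 48.9% of all genes, with a median log2 fold change of −0.08 beside 0.0047 for all genes in the fit. The 3 libraries of one group lay beyond those of the other in 2 of the 10, Phlda3 and Bax, both lower in Myrf-kd. Over all genes that held for 7.45% in that direction and for 14.6% in either. Without Myrf-kd 3 the median was −0.03, and in the male libraries alone 0.04.

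**Figure D2:**
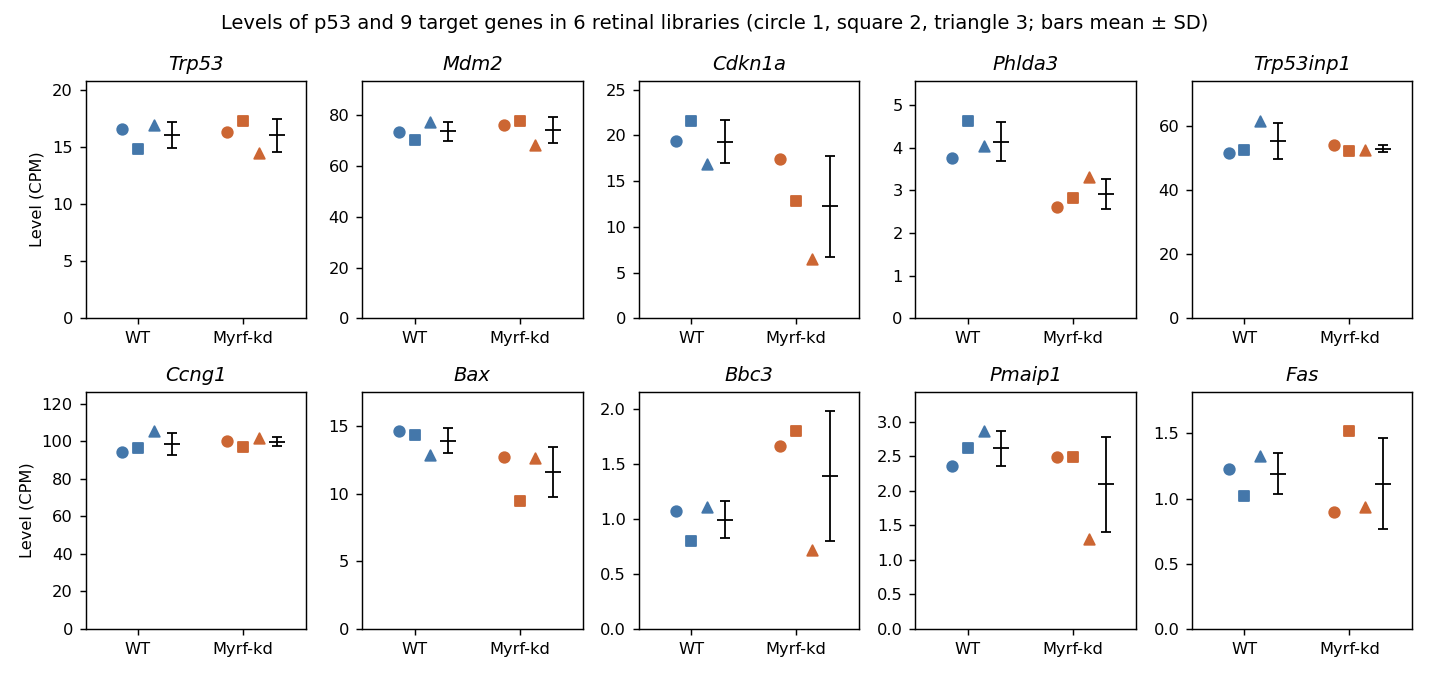
Level of each gene in CPM (axes from 0), with 1 point per library and the mean ± SD of 3 libraries beside each group. Phlda3 and Bax are separated between the groups, and the triangle of Myrf-kd 3 is the lowest point for Trp53, Mdm2, Cdkn1a, Bbc3 and Pmaip1.

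The regulator and its feedback partner had ratios near 1. Trp53 (ENSMUSG00000059552, chromosome 11, 69580359 to 69591873, plus strand, GRCm38) was at 16.3, 17.4 and 14.5 CPM in libraries Myrf-kd 1, 2 and 3. The WT 1, 2 and 3 libraries held 16.6, 14.8 and 17.0 CPM. The lowest and the highest of the 6 values both came from Myrf-kd. The fitted ratio of Myrf-kd to WT was 0.996, with a 95% interval from 0.829 to 1.2 (edgeR adjusted p = 0.991).

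Mdm2 (ENSMUSG00000020184, chromosome 10, 117688875 to 117710758, minus strand) was at 76.3, 78.0 and 68.3 CPM in Myrf-kd, against 73.4, 70.1 and 77.4 CPM in WT. All WT values lay inside the Myrf-kd range. The ratio was 1.01, with an interval from 0.888 to 1.14 (edgeR adjusted p = 0.979). Mdm2 varied with Trp53 from library to library, with a Pearson r of 0.95 over the 6 libraries, the highest of the 45 pairs among the 10 genes. All r values here describe 6 points, in which both genes share library and scaling. Rankings of likeness left out genes named Gm with digits, names ending in Rik and clone-like names. Among the other genes in the fit, the most like Trp53 by the same measure were Med17, Nav1 and Tcta (r of 0.996, 0.991 and 0.987). In all, 169 of the genes ranked had an r over 0.9 with Trp53.

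Of the growth arrest genes, Cdkn1a had the largest difference in estimate and Ccng1 nearly none. Cdkn1a (ENSMUSG00000023067, chromosome 17, 29090976 to 29100727, plus strand) was at 17.4, 12.8 and 6.46 CPM in libraries Myrf-kd 1, 2 and 3. The WT 1, 2 and 3 libraries held 19.4, 21.6 and 16.9 CPM. Myrf-kd 1 lay inside the WT range, Myrf-kd 2 below it and Myrf-kd 3 far below. The means were 12.2 ± 5.52 CPM in Myrf-kd, against 19.3 ± 2.35 CPM in WT (SD, n = 3 each). The log2 fold change was −0.66 ± 0.33 (SE), a ratio of 0.634 with an interval from 0.367 to 1.10, and it did not pass (edgeR adjusted p = 0.697). By an exact permutation test, two-sided, p was 0.2 (0.667 adjusted over the 10 genes), where 3 libraries against 3 cannot go below 0.1. Without Myrf-kd 3 the log2 fold change was −0.35 (edgeR adjusted p = 0.720). With sex as a covariate it was −0.75 (edgeR adjusted p = 0.671). The spread of Cdkn1a within Myrf-kd, an SD of 0.734 in log2 CPM, was at percentile 96.0 of all genes in the fit, and within WT (0.177) at percentile 68.4.

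Ccng1 (ENSMUSG00000020326, chromosome 11, 40748552 to 40755311, minus strand), whose promoter window also holds an element with 1 departure, gave the tightest estimate. It was at 100.2, 97.0 and 101.7 CPM in Myrf-kd, against 94.3, 96.4 and 105.3 CPM in WT. All Myrf-kd values lay inside the WT range. The ratio was 1.01, with an interval from 0.908 to 1.12 (edgeR adjusted p = 0.964). Between the 2 genes with the closest elements, Cdkn1a and Ccng1, the r over the 6 libraries was −0.37.

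Trp53inp1 (ENSMUSG00000028211, chromosome 4, 11156431 to 11174379, plus strand) was at 54.1, 52.1 and 52.4 CPM in Myrf-kd, against 51.5, 52.3 and 61.7 CPM in WT. The groups overlapped, and WT 3 stood above the rest. The ratio was 0.959, with an interval from 0.830 to 1.11 (edgeR adjusted p = 0.862).

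Phlda3 was the gene with the smallest unadjusted p of the 10. Phlda3 (ENSMUSG00000041801, chromosome 1, 135766119 to 135769136, plus strand) was at 2.60, 2.83 and 3.31 CPM in libraries Myrf-kd 1, 2 and 3. The WT 1, 2 and 3 libraries held 3.74, 4.63 and 4.03 CPM. All 3 Myrf-kd libraries lay below all 3 WT libraries. The means were 2.91 ± 0.360 CPM in Myrf-kd, against 4.14 ± 0.453 CPM in WT (SD, n = 3 each), with 42 to 70 fragments per library. The log2 fold change was −0.50 ± 0.18 (SE), a ratio of 0.705 with an interval from 0.526 to 0.945. By edgeR's quasi-likelihood test the unadjusted value was 0.0259 and it did not pass over all genes (edgeR adjusted p = 0.666), and its p ranked 497 among 13676. The exact permutation test gave p = 0.1, the smallest it can give, or 0.5 adjusted over the 10 genes. Its estimate was negative in all 17 alternatives, from −0.62 to −0.32, with an edgeR, limma or DESeq2 adjusted p of at least 0.517. The summed markers of cornea and surface epithelium, and those of fibroblasts and sclera, were also lower in every Myrf-kd library than in every WT library. All 5 fitted markers of the pigment epithelium had lower estimates, while their sums overlapped. The part of these tissues in the Phlda3 values was not tested. Among the genes ranked for likeness, those most like Phlda3 over the 6 libraries were Slc4a5, Baalc and Atxn7l3b (r of 0.988, 0.987 and 0.984). An r over 0.9 with Phlda3 was found for 106 of the genes ranked.

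Estimates of the death genes did not share a direction. Bax (ENSMUSG00000003873, chromosome 7, 45461697 to 45466898, minus strand) was at 12.7, 9.46 and 12.7 CPM in Myrf-kd, against 14.6, 14.3 and 12.9 CPM in WT. The groups did not overlap, though Myrf-kd 1 and 3 lay just under WT 3. The ratio was 0.832, with an interval from 0.655 to 1.06 (edgeR adjusted p = 0.702), and the exact permutation p was 0.1 (0.5 adjusted over the 10 genes). Its log2 fold change of −0.26 became −0.14 without Myrf-kd 2.

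Bbc3 (ENSMUSG00000002083, chromosome 7, 16308393 to 16318205, plus strand) was at 1.66, 1.80 and 0.714 CPM in libraries Myrf-kd 1, 2 and 3. The WT 1, 2 and 3 libraries held 1.07, 0.799 and 1.11 CPM. Myrf-kd 1 and 2 lay above all WT libraries and Myrf-kd 3 below them. The log2 fold change was 0.48 ± 0.38 (SE), a ratio of 1.39 with an interval from 0.745 to 2.61 (edgeR adjusted p = 0.757). Without Myrf-kd 3 the log2 fold change was 0.79 (edgeR adjusted p = 0.720). Bbc3 had 10 to 28 fragments per library, and the part of depth in the width of its interval was not tested.

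Pmaip1 (ENSMUSG00000024521, chromosome 18, 66458533 to 66465565, plus strand) was at 2.48, 2.49 and 1.3 CPM in Myrf-kd, against 2.36, 2.62 and 2.86 CPM in WT. Myrf-kd 1 and 2 lay inside the WT range and Myrf-kd 3 below it. The ratio was 0.800, with an interval from 0.499 to 1.28 (edgeR adjusted p = 0.782). Its log2 fold change of −0.32 became −0.07 without Myrf-kd 3.

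Fas (ENSMUSG00000024778, chromosome 19, 34290666 to 34327772, plus strand) was at 0.894, 1.52 and 0.933 CPM in Myrf-kd, against 1.23, 1.02 and 1.33 CPM in WT. Myrf-kd 2 was the highest library and Myrf-kd 1 the lowest. The ratio was 0.933, with an interval from 0.583 to 1.49 (edgeR adjusted p = 0.937). In RNA of whole retina, fewer cells of a type and less RNA per cell cannot be told apart for any of these genes.

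**Figure D3:**
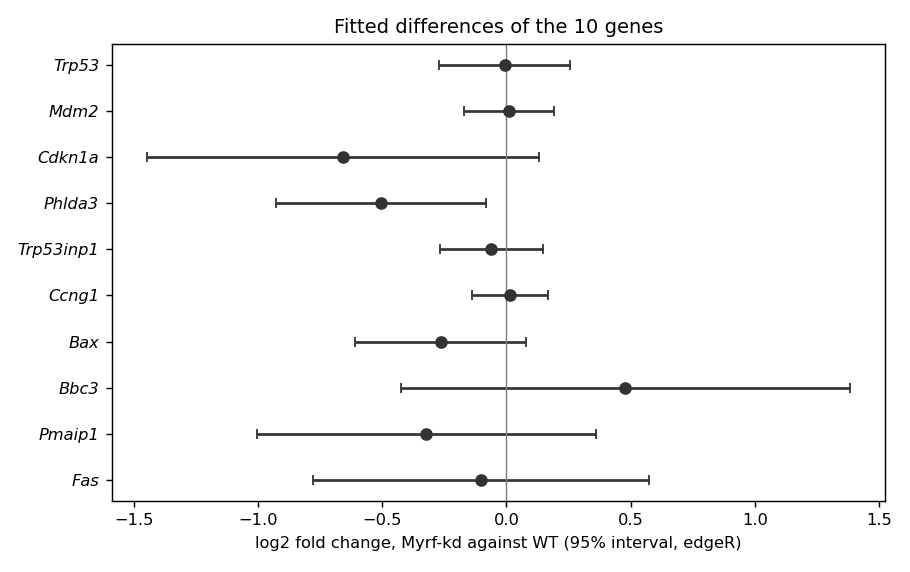
Fitted log2 fold change of Myrf-kd against WT (x axis) for each gene, with the 95% interval from edgeR. The intervals of Trp53, Mdm2, Trp53inp1 and Ccng1 are narrow and span 0, and that of Phlda3 is the only one that does not reach 0, before adjustment over all genes.

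The library Myrf-kd 3 held the lowest level of 5 of the 10 genes, against 25.2% of all genes in the fit. They were Trp53, Mdm2, Cdkn1a, Bbc3 and Pmaip1. Cdkn1a and Pmaip1 varied together (r = 0.89 over 6 libraries), and Bbc3 followed Mdm2 (r = 0.89). Of the 45 pairs, 11 had an r over 0.5 and 15 an r below 0, so the 10 genes did not move as 1 group. This library is also the only female one of its group and held the most lens marker RNA. Their part in these levels was not tested.

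Other programmes can raise some of the same targets, so genes driven by ATF4 and CHOP, factors of the integrated stress response, were examined beside them. Of 10 such genes, all in the fit, 7 had lower and 3 higher estimates, 0 passed by edgeR, limma or DESeq2, and the median log2 fold change was −0.18. At an unadjusted p under 0.05 there were 0 by edgeR, 0 by limma and 3 by DESeq2, where the shares of all genes were 7.47%, 7.44% and 7.88%. The groups did not overlap in 5 of the 10, all lower in Myrf-kd, against 7.45% of all genes in that direction. Trib3, which encodes a pseudokinase induced by CHOP, was at 23.1, 17.9 and 7.24 CPM in libraries Myrf-kd 1, 2 and 3. The WT 1, 2 and 3 libraries held 26.9, 26.6 and 25.5 CPM. The gene thus showed the order of Cdkn1a within Myrf-kd, with Myrf-kd 3 lowest (edgeR adjusted p = 0.697). Ddit3, which encodes CHOP, was at 72.7, 69.3 and 44.1 CPM in Myrf-kd, against 81.6 ± 6.81 CPM in WT. Herpud1, a gene of protein degradation at the endoplasmic reticulum, was at 117, 105 and 75.4 CPM in Myrf-kd, against 123 ± 2.43 CPM in WT. Ddit4, which encodes an inhibitor of mTOR signalling, had its highest value in Myrf-kd 3, at 86.2 CPM, against 64.9 ± 6.56 CPM in WT.

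Glucocorticoids can also act on Cdkn1a, and of 10 genes that respond to them 9 had lower and 1 a higher estimate in Myrf-kd, with a median of −0.15, where 48.9% of all genes had lower estimates. By edgeR 0 passed and 3 had an unadjusted p under 0.05. The same counts were 0 and 3 by limma and 0 and 4 by DESeq2. An unadjusted p under 0.05 was found for 7.47% of all genes by edgeR, 7.44% by limma and 7.88% by DESeq2. Of the 10 genes, 4 lay without overlap below WT and 1 above it. Over all genes that held for 7.45% in the lower direction and for 14.6% in either. Klf9, which encodes a Krüppel-like factor, was at 245, 211 and 187 CPM in libraries Myrf-kd 1, 2 and 3, against 261 ± 8.25 CPM in WT. The metallothionein gene Mt2 was at 26.6, 21.6 and 11.1 CPM in Myrf-kd, against 32.1, 33.0 and 27.3 CPM in WT. Of the genes ranked for likeness, without predicted or clone-like names, Mt2 was the one most like Cdkn1a over the 6 libraries (r = 0.997). Ncoa5 (0.996) and Asxl2 (0.994) followed, among 441 of the genes ranked with an r over 0.9. Cebpd, a gene of the C/EBP family, was at 4.03 ± 0.774 CPM in Myrf-kd, against 5.73 ± 0.188 CPM in WT. Per1, a clock gene, was at 113 ± 12.1 and 137 ± 12.8 CPM (edgeR adjusted p = 0.666 for Klf9, Cebpd and Per1 and 0.686 for Mt2).

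**Figure D4:**
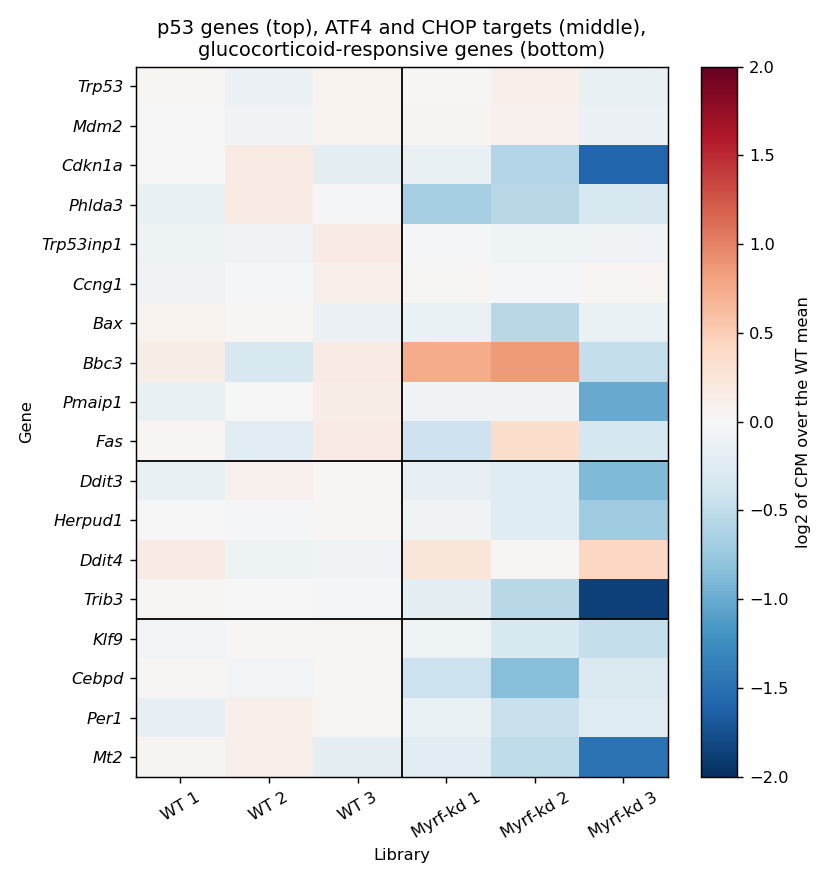
Colour shows log2 of the CPM in each library over the WT mean, for the 10 p53 genes, 4 ATF4 and CHOP targets and 4 glucocorticoid-responsive genes. Cdkn1a, Pmaip1, Trib3 and Mt2 are darkest blue in Myrf-kd 3, while Trp53, Mdm2 and Ccng1 stay pale in every library.

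Further targets of p53 were evenly divided. Of 30 such genes 23 were in the fit, 11 with higher and 12 with lower estimates, and the median log2 fold change was −0.00018. By edgeR, limma and DESeq2 0 of the 23 passed, and 1 had an unadjusted p under 0.05 by each. The shares of all genes under that p were 7.47%, 7.44% and 7.88%. Sesn1, which encodes a sestrin that curbs mTORC1, was at 158, 139 and 116 CPM in Myrf-kd, against 168, 172 and 182 CPM in WT. Its groups did not overlap (log2 fold change −0.34 ± 0.11 SE, edgeR adjusted p = 0.666). Its relative Sesn2, which ATF4 also drives, was at 38.4, 37.1 and 24.4 CPM in Myrf-kd, against 42.0 ± 1.40 CPM in WT. Zmat3, which encodes an RNA-binding zinc finger protein, was at 45.4 ± 2.37 CPM in Myrf-kd, against 50.4 ± 1.28 CPM in WT. The antiproliferative gene Btg2 was at 102 ± 2.35 and 93.1 ± 6.22 CPM. In this list 3 of the 23 genes lay without overlap above WT and 3 below it, where 14.6% of all genes did so in either direction and 7.45% in the lower one.

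Of 22 regulators and relatives of p53, 16 were in the fit, 6 with higher and 10 with lower estimates (median −0.04), and 0 passed by edgeR, limma or DESeq2. At an unadjusted p under 0.05 there were 2 by edgeR, 2 by limma and 1 by DESeq2, beside 7.47%, 7.44% and 7.88% of all genes. Rpl11, a ribosomal protein gene whose product can bind Mdm2, was at 138, 158 and 176 CPM in Myrf-kd, against 120, 124 and 122 CPM in WT. All Myrf-kd libraries lay above WT (log2 fold change 0.37 ± 0.09 SE, edgeR adjusted p = 0.666). Processed copies of ribosomal protein genes can share its reads, so this level is uncertain. Usp7, which encodes a deubiquitinase of Mdm2 and p53, was at 246 ± 9.39 CPM in Myrf-kd, against 272 ± 9.21 CPM in WT. The p53-binding gene Trp53bp2 was at 59.0 ± 3.76 and 65.4 ± 2.73 CPM, and the acetyltransferase gene Crebbp at 72.8 ± 4.92 and 79.5 ± 0.271 CPM. Of the 16 genes, 2 lay without overlap above WT and 2, Usp7 and Crebbp, below it. Over all genes that held for 14.6% in either direction and for 7.45% in the lower one.

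The machinery of apoptosis around Bax and Bbc3 had 18 of 23 genes in the fit, 6 with higher and 12 with lower estimates (median −0.06). By edgeR, limma and DESeq2 0 passed, and 2 had an unadjusted p under 0.05 by each, where the shares of all genes were 7.47%, 7.44% and 7.88%. Mcl1, a survival gene of the Bcl-2 family, was at 111, 107 and 110 CPM in Myrf-kd, against 117, 139 and 133 CPM in WT. Bad, a BH3-only death gene, was at 10, 9.58 and 13.1 CPM in Myrf-kd, against 14.1, 15.2 and 13.8 CPM in WT. The groups did not overlap in 4 of the 18 genes, all lower in Myrf-kd, against 7.45% of all genes in that direction. They were Mcl1, Bad, Bak1 and Bok (edgeR adjusted p = 0.666 for Mcl1 and Bad and 0.697 for Bak1 and Bok). Bak1, the close relative of Bax, was at 13.9 ± 2.72 CPM in Myrf-kd, against 17.3 ± 1.42 CPM in WT, and Bok, another relative, at 4.43 ± 0.384 and 5.37 ± 0.106 CPM.

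Genes of the cell cycle, on which p21 acts, had 15 of 26 members in the fit, 9 with higher and 6 with lower estimates (median 0.05). By edgeR, limma and DESeq2 0 passed, and 0 had an unadjusted p under 0.05, against 7.47%, 7.44% and 7.88% of all genes. Cdkn1b, which encodes the related inhibitor p27, was at 84.0, 88.8 and 136 CPM in libraries Myrf-kd 1, 2 and 3, against 87.0 ± 4.02 CPM in WT. In Myrf-kd 3 it was thus highest where Cdkn1a was lowest (edgeR adjusted p = 0.748). The replication gene Mcm2 was at 25.8, 25.9 and 14.3 CPM in Myrf-kd, against 27.3 ± 3.31 CPM in WT. Rb1, the retinoblastoma gene, was at 75.0 ± 10.9 and 83.7 ± 5.15 CPM, and Lin54, a subunit of the DREAM complex, at 19.8 ± 0.437 and 17.7 ± 1.98 CPM in Myrf-kd, against WT.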

How the data were processed

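Per the labels' protocols, total RNA of retina was extracted with Trizol and sequenced as standard Illumina libraries. Bowtie 0.12.2, HISAT2 2.0, StringTie 1.3.0 and GRCm38 are named, without roles, in the submitters' processing notes. The authors deposited FPKM values and estimated counts for each gene and library. The estimated counts are whole numbers in which 4 units occur more often than 1, 2 or 3, so 4 were read as 1 fragment, and rounding changed none. The sources used here do not give strand handling. In the table Bax overlaps Gm45808, Cdkn1a overlaps AC167363 and Fas overlaps Gm27818, listed at 0.176, 0.229 and 0.0001 FPKM.

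Genes reaching a mean FPKM of 1, and the 10 genes regardless, were fitted with edgeR 4.0.16 (quasi-likelihood, TMM factors, genotype only), and p-values were adjusted by Benjamini-Hochberg over 13676 genes. CPM scale the units of a gene to the TMM-normalized library total. Intervals of 95% come from the F statistic. Alternatives used limma 3.58.1 on log2(FPKM + 1) or log2(FPKM + 0.1), DESeq2 1.42.0, other scalings and filters, a replicate block, sex, and the omission of each library. The test was checked on simulated data. No libraries of a group agreed within sampling noise. The genes and lists were chosen with earlier results of these data known. Named from each list are up to 4 genes with the smallest unadjusted p. Promoter windows are those of RefSeq.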

Additional observations from a re-analysis of the deposited data

Results flagged for a closer look

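In 3 of the 10 genes both male Myrf-kd libraries lay on 1 side of both male WT libraries and the female pair lay the other way. By the mean ratio alone 6 genes had opposite signs, with Trp53, Trp53inp1 and Fas beside these 3. The shares of all genes with these patterns were not counted, so neither count sets the 10 genes apart. For Bbc3 the log2 ratio of Myrf-kd to WT was 0.89 in the 4 male libraries and −0.64 in the 2 female libraries. For Mdm2 these ratios were 0.1 and −0.18, and for Ccng1 0.05 and −0.05. An interaction of genotype and sex, chosen after seeing the data, gave an edgeR adjusted p of 0.543 for Bbc3, 0.582 for Mdm2 and 0.815 for Ccng1 (unadjusted 0.0370, 0.0669 and 0.424). For Cdkn1a and Pmaip1 the fitted log2 fold change of the male libraries exceeded that of the female pair by 0.95 and 1.14. For them the same edgeR interaction gave an adjusted p of 0.541 and 0.548 (unadjusted 0.0353 and 0.0376). Each group has 1 female library, so sex cannot be told apart from that library.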

How the results depend on the processing

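In 17 alternatives 0 of the 10 genes passed, and 150 of 170 estimates kept the sign of the main fit. Cdkn1a, Phlda3, Bax and Bbc3 kept theirs throughout. The other estimates changed sign near 0. Trp53 (main −0.0062) was 0.00855 by limma with a pseudocount of 1, 0.0106 with 0.1, 0.0261 with total count only, 0.00647 at a mean FPKM of at least 5 and 0.10 in the male libraries, a choice made after seeing the data. In the male libraries Trp53inp1 was 0.0328, Pmaip1 4.81e-06 and Fas 0.10. Leaving out 1 library gave ranges of −0.0659 to 0.061 for Trp53, −0.0269 to 0.0659 for Mdm2, −0.0181 to 0.0638 for Ccng1, −0.11 to 0.0266 for Trp53inp1 and −0.39 to 0.0347 for Fas. It gave −1.0 to −0.35 for Cdkn1a, −0.47 to −0.07 for Pmaip1, −0.33 to −0.14 for Bax and 0.25 to 0.79 for Bbc3.

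Over all genes, 6 passed by edgeR, 53 by DESeq2, 2 at a mean FPKM of at least 5, 22 in the male libraries and 9 to 16 without 1 library. The cause was not tested. Under a replicate block 0 genes passed by edgeR (701 at an unadjusted p under 0.05), and Cdkn1a had a log2 fold change of −0.76. Correlations of same-numbered libraries were −0.04, 0.08 and 0.14, and not every library correlated best with its own number, so the numbers were not taken as pairs. The values of Bbc3, Fas and Pmaip1 rest on only 10 to 50 fragments per library. The part of depth in the width of their intervals was not tested.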
